A study of Mus musculus with 9 samples.

Results

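The 10 mesodermal forkhead genes of the mouse (Foxc1, Foxc2, Foxd1, Foxd2, Foxf1, Foxf2, Foxl1, Foxp1, Foxp2 and Foxp4) were examined for open chromatin in cells of the E9.5 pharyngeal apparatus with and without Tbx1. They were chosen by name, out of 22073 genes, and each locus was the gene body in mm9 with 50 kb on either side. A peak, an interval in which the ATAC-seq transposase had inserted often enough to be called, was assigned to a locus by its midpoint. It was counted as a promoter peak within 1 kb of a transcription start site (TSS) and as a distal peak elsewhere. The windows of Foxf1, Foxc2 and Foxl1 overlap on chromosome 8 and share peaks, so the 10 genes lie in 8 separate loci.

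The cells were GFP+ and came from pools of E9.5 embryos of the Swiss Webster strain, all with 1 Rosa26-GFPflox reporter allele, which Cre switches on. The 3 Mesp1-Cre Ctrl libraries came from Mesp1Cre;Rosa26-GFPflox/+ embryos, in which Cre is expressed from the Mesp1 locus and marks mesoderm. The 3 Tbx1-Cre Ctrl libraries came from Tbx1Cre;Rosa26-GFPflox/+ embryos, in which Cre replaces 1 copy of Tbx1 and marks mesoderm, endoderm and ectoderm, so these controls had a single working copy. The 3 Tbx1-Cre cKO libraries came from Tbx1Cre/flox;Rosa26-GFPflox/+ embryos, in which Cre also inactivates the remaining, floxed copy. The labels call every sample pharyngeal mesoderm. They give the tissue as pharyngeal apparatus and heart for Mesp1-Cre, with the back added for both Tbx1-Cre groups, whereas the study's methods describe tissue without the heart. The Cre line and the dissection therefore cannot be told apart.

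Forkhead proteins are transcription factors that bind DNA through a winged-helix domain, and the family has many members with distinct roles in embryonic mesoderm. Foxc1 and Foxc2 act in somites, head mesenchyme and the cardiac outflow tract and are known to activate Tbx1 in head mesenchyme. Foxf1, Foxf2 and Foxl1 act in the mesoderm around the gut, where Hedgehog signals from the endoderm switch them on. Foxd1 and Foxd2 mark mesenchyme of the face and kidney. Foxp1, Foxp2 and Foxp4 form a subfamily of repressors that pair through a leucine zipper and act in heart, lung and muscle.

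The lists differed in length before any gene was considered. They held 25483 to 42648 peaks in Mesp1-Cre Ctrl, 43298 to 49490 in Tbx1-Cre Ctrl and 19772 to 29251 in cKO, and distal peaks numbered 27667 to 32194 in Tbx1-Cre Ctrl but 7317 to 14823 in cKO. The list of Mesp1-Cre Ctrl 1, at 42648 peaks, stands apart, because its length is not among those in the study's sample summary, whereas the other 8 lists match that summary. Calls by gene, sums over the loci, widths, regions without a Mesp1-Cre peak and base pairs are given with and without it. Marker sums, percentages of whole lists, the share of Ctrl-only regions with a Mesp1-Cre peak and values at equal list length are given only with it. Peaks carry no height and the read depth is unknown, so a missing peak is not a measure of closed chromatin. In sorted bulk cells, fewer cells of a type and less open chromatin per cell cannot be told apart. Marker genes moved with the groups. Distal peaks at 10 cardiopharyngeal mesoderm genes summed to 20 to 33 in Mesp1-Cre Ctrl, 23 to 40 in Tbx1-Cre Ctrl and 11 to 19 in cKO, and those at 8 endoderm genes to 4 to 17, 22 to 26 and 5 to 13. A promoter peak was called at 5 to 8, 6 to 8 and 4 to 5 of the mesoderm genes and at 3 to 4, 2 to 6 and 1 to 2 of the endoderm genes. Distal sums at the other marker lists were likewise 27 to 36 in Tbx1-Cre Ctrl and 17 to 21 in cKO for 6 ectoderm and placode genes, 18 to 26 and 7 to 11 for 5 endothelial genes, 10 to 21 and 4 to 6 for 3 neural crest genes, and 8 to 18 and 4 to 8 for 4 blood genes. In Mesp1-Cre Ctrl these sums were 17 to 22, 11 to 23, 6 to 10 and 3 to 10, in the same order. A promoter peak was called at 2 to 3, 3 and 2 of the ectoderm and placode genes in Mesp1-Cre Ctrl, Tbx1-Cre Ctrl and cKO. It was called at 1 to 2 of the endothelial genes in every group and at 1 neural crest gene in every library. For blood genes the numbers were 1 to 2, 1 and 1. Markers with no promoter peak in any library were Tbx5, Shh, Trp63, Sox10, Foxd3, Pecam1, Cdh5, Tie1, Gata1 and Klf1. The parts played by list length and by cell makeup in the values below were not tested, but values with list length held equal are given.

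After merging overlapping peaks of the 9 libraries, the 8 loci held 109 regions, of which 81 were distal, 19 lay at a promoter of a member and 9 at a promoter of another gene. A width given for a region in a library is the summed width of all peaks of that library in the region. Of the 21 distal regions called in all 3 Tbx1-Cre Ctrl libraries, 7 were called in none of the cKO libraries (33.3%, against 27.8% of 15793 such regions genome-wide). None of the 5 regions called in all cKO libraries was free of control peaks (0.156% of 4501 genome-wide). The 7 are shown because the whole lists gave them in all controls and no cKO library. With each list cut to its 19772 widest peaks, none of the 7 was called in all 3 controls, and each had a peak in 0 or 1 of them. Each sequence is the central 200 bases, plus strand of mm9. Capitals mark a match to either of a pair of motifs, and both strands were searched. The first is the forkhead core, which reads TGTTTAC on its own strand and therefore appears here in that form or as its reverse complement, GTAAACA. The other is the half-site bound by T-box factors such as TBX1, which reads GGTGTGA on its own strand and appears here in that form or as its reverse complement, TCACACC. Of the 7 windows, 5 held no match. The positions are chr13:31893181-31893380 at Foxc1, chr13:99163458-99163657 and chr13:99176183-99176382 at Foxd1, chr4:114625966-114626165 at Foxd2, chr6:98895799-98895998 at Foxp1, chr6:15235367-15235566 at Foxp2 and chr17:47968334-47968533 at Foxp4.
Foxc1, upstream: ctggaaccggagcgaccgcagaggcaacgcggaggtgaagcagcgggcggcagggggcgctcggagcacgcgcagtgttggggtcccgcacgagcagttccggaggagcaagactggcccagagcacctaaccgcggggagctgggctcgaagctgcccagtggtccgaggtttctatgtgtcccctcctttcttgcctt
Foxd1, first downstream: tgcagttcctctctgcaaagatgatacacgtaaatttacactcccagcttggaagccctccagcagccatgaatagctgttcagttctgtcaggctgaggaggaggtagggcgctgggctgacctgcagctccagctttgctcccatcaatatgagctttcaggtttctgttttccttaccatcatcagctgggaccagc
Foxd1, second downstream: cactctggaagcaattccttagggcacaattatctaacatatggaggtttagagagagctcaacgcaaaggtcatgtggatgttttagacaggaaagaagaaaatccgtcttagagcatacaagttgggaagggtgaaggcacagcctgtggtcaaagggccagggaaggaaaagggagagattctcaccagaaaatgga
Foxd2, upstream: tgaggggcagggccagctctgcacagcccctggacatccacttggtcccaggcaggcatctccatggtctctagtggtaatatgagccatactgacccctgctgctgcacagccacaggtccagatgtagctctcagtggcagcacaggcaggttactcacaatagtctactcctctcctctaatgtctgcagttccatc
Foxp1, intron: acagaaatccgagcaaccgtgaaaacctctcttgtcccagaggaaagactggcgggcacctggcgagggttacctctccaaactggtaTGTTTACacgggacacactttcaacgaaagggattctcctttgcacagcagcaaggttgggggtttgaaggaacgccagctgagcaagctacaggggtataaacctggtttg
Foxp2, intron: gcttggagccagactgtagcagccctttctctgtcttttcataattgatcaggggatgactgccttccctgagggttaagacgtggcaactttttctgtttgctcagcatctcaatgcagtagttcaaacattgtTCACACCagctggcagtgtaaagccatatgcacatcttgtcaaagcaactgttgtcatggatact
Foxp4, near Mdfi: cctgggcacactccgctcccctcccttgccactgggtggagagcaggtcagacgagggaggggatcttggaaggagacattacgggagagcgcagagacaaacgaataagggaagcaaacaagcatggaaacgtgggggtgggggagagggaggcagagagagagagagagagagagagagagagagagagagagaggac

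The Foxp1 sequence held the forkhead core and the Foxp2 sequence the T-box half-site. Across the genome, 4.81% of the central 200-base windows of such Ctrl-only regions held the core and 2.46% the half-site. Among all 81 distal regions of the member loci, 3 (3.70%) held the core and 3 (3.70%) the half-site, against 3.74% and 2.77% of all distal regions. A match is a description of letters and not a bound site.

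Contrasting patterns are shown by the next 3 sequences. The Foxd1 region at chr13:99161473-99161672 was called in all 9 libraries and lies next to the first Foxd1 region above. The Foxp1 region at chr6:99008903-99009102 was called in all 3 Mesp1-Cre Ctrl libraries and in no Tbx1-Cre library. The window at chr6:14850796-14850995, from the Foxp2 promoter region called in all 9 libraries, was the 1 of 28 promoter windows at the member loci with a forkhead core (3.57%, against 1.44% of all promoter regions), shown in capitals, and none of the 28 held the half-site (1.67% of all).
Foxd1, called in all libraries: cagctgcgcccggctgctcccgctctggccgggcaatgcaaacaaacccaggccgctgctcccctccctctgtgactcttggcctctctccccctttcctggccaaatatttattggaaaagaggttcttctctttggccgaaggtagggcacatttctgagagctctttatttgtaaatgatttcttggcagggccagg
Foxp1, Mesp1-Cre Ctrl alone: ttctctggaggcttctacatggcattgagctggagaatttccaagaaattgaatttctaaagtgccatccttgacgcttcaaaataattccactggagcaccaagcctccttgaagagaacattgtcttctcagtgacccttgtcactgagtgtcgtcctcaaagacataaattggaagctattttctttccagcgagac
Foxp2, promoter: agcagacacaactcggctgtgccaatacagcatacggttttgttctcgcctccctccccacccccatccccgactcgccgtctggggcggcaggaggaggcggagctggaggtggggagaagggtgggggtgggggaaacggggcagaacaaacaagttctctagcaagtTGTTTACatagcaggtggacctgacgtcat

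The 300 bases upstream of the 10 gene starts held neither motif, compared with 3.47% of 22073 genes for the core and 3.86% for the half-site. That says only that these letters are not in these windows.

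The member loci were compared first between cKO and Tbx1-Cre Ctrl. Distal peaks at the 8 loci together numbered 60, 33 and 43 in the Tbx1-Cre Ctrl libraries and 22, 11 and 10 in the cKO libraries (45.3 ± 13.7 and 14.3 ± 6.66, SD, n = 3). Every cKO library lay below every control. The cKO mean was 31.6% of the control mean, while distal peaks over whole lists were at 35.6%, and per 10000 distal peaks of each list the groups overlapped, at 18.6, 11.9 and 13.8 for Tbx1-Cre Ctrl and 14.8, 10.7 and 13.7 for cKO. The median gene-wise difference over the 10 genes was -2.83 peaks, against -1.0 over 17715 genes with a distal peak. A difference in counts can be larger where there are more peaks. All 10 members had a mean of at least 1 distal peak, as did 11980 genes, and no median was taken at matched peak number. All 10 members lay below 0, as did 90.7% of genes.

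Gene by gene, distal counts of cKO lay wholly below those of Tbx1-Cre Ctrl at 5 of the 10 members (Foxc1, Foxd1, Foxd2, Foxp1 and Foxp2) and above at none. The background was 26.0% of genes lower and 0.0508% higher, and 33.1% were lower among the 11980 genes with a mean of at least 1 distal peak, a level that all 10 members reached. With 3 libraries against 3 the exact two-sided permutation test cannot give a p below 0.1, and the smallest Benjamini-Hochberg adjusted p over all genes was 0.384, so no single gene passed. When each list was cut to its 19772 widest peaks, 0 of 10 members had separate groups in either direction, beside 2.29% of genes lower and 2.15% higher. Per 10000 peaks of the list, 2 members remained lower, Foxc1 and Foxp2, against 13.7% of genes.

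**Figure D1:**
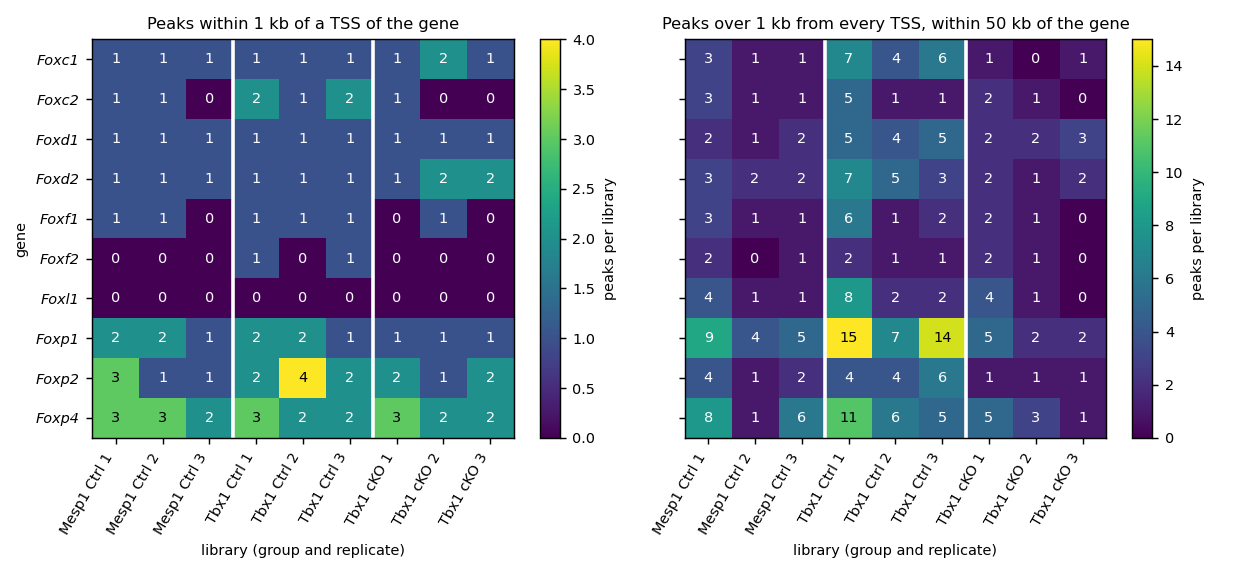
Number of promoter peaks (left) and distal peaks (right) at each of the 10 genes (rows) in each of the 9 libraries (columns, white lines between groups), with the count printed in the cell and shown by colour. Distal counts at Foxc1, Foxd1, Foxd2, Foxp1 and Foxp2 were lower in every Tbx1-Cre cKO library than in every Tbx1-Cre Ctrl library, while promoter counts overlapped at all genes.

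Foxc1 and Foxc2, the pair upstream of Tbx1 in head mesenchyme, differed from each other in distal peak counts. At Foxc1 (chr13:31898515-31902504) distal peaks numbered 7, 4 and 6 in Tbx1-Cre Ctrl, 1, 0 and 1 in cKO and 3, 1 and 1 in Mesp1-Cre Ctrl. Both other groups lay below Tbx1-Cre Ctrl without overlap, by 5.0 and 4.0 peaks in the mean (exact permutation p = 0.1 each, two-sided, the smallest possible, adjusted p 0.384 and 0.872). Foxc1 was also the 1 member below Tbx1-Cre Ctrl in every Mesp1-Cre library among the widest peaks (3.59% of genes lower and 3.7% higher). The 2 Foxc1 regions called in all 3 controls lay on either side of the gene. The region 5234 bp upstream (chr13:31893001-31893561, intergenic) was 561, 200 and 245 bp wide in the controls and had no peak in the other 6 libraries, the nearest cKO peak lying 4531 bp away. The region 9219 bp downstream of the start (chr13:31907317-31908150, intergenic) was 817, 739 and 643 bp wide in the controls, had a peak of 248 bp in cKO 1 alone, and was absent from all Mesp1-Cre Ctrl lists. In the lists of 19772 widest peaks, this was the only distal region at a member locus with a peak in all 3 controls and no cKO library, since its peak in cKO 1 was narrower than the 297 bp kept there.

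The Foxc1 promoter, in contrast, was called everywhere. The peak at chr13:31897818-31898975 was 678, 726 and 656 bp wide in Mesp1-Cre Ctrl, 1009, 923 and 893 bp in Tbx1-Cre Ctrl and 586, 497 and 472 bp in cKO. The 3 groups did not overlap and cKO was narrowest, with means of 942 ± 60.2 bp in Tbx1-Cre Ctrl and 518 ± 59.9 bp in cKO (exact permutation p = 0.1, n = 3).

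Foxc2 (chr8:123640071-123642792) had 5, 1 and 1 distal peaks in Tbx1-Cre Ctrl, 2, 1 and 0 in cKO and 3, 1 and 1 in Mesp1-Cre Ctrl, and the groups overlapped throughout. Its promoter region (chr8:123640010-123640850) was 581, 505 and 727 bp wide in the controls and was called in 1 cKO library, at 307 bp, and in 2 Mesp1-Cre Ctrl libraries, at 200 and 244 bp. In Tbx1-Cre Ctrl 1 and 3 the width is the sum of 2 peaks. The promoter counts of 2, 1 and 2 in Tbx1-Cre Ctrl and 1, 0 and 0 in cKO touched at 1 and gave an exact permutation p of 0.2. The study lists Foxc2 among genes with changed expression and accessibility in Tbx1 conditional nulls. It proposes from ChIP-seq that Foxc2 may be a direct TBX1 target. Its accessibility result rests on a model of read counts and on regions assigned to genes with GREAT, so peak counts in a 50 kb window cannot test it. Base pairs under peaks at Foxc2 were lower in every cKO library (1818, 1044 and 460) than in every control (3676, 2096 and 2782). That was so at 68.5% of genes, and Foxf1 and Foxl1 share these peaks.

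Foxf1, Foxf2 and Foxl1, the genes of gut mesoderm, had means of 6.67, 2.0 and 7.67 peaks of any kind in Tbx1-Cre Ctrl, against 6.67 at Foxc1. Foxf1, named Foxf1a in this annotation (chr8:123608286-123610851), had a promoter peak in 2 of 3 Mesp1-Cre Ctrl, 3 of 3 Tbx1-Cre Ctrl and 1 of 3 cKO libraries (chr8:123607497-123608669). It was widest in Mesp1-Cre Ctrl 1, at 809 bp, against 346, 327 and 405 bp in Tbx1-Cre Ctrl and 268 bp in cKO 2. Distal peaks numbered 6, 1 and 2 in Tbx1-Cre Ctrl, 2, 1 and 0 in cKO and 3, 1 and 1 in Mesp1-Cre Ctrl. All 3 groups overlapped, and Tbx1-Cre Ctrl 1 supplied most of the control peaks.

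Foxl1, annotated as a pseudogene in this version of the annotation (chr8:123651840-123652929), had no promoter peak in any library. The region centred 2523 bp upstream (chr8:123648664-123649970) was nevertheless called in all libraries except cKO 3, at 697, 337 and 246 bp in Mesp1-Cre Ctrl, 1112, 624 and 1027 bp in Tbx1-Cre Ctrl and 816 and 291 bp in cKO 1 and 2. Because the 3 windows overlap, this region also counts for Foxf1 and Foxc2. Distal counts at Foxl1 were 8, 2 and 2 in Tbx1-Cre Ctrl, 4, 1 and 0 in cKO and 4, 1 and 1 in Mesp1-Cre Ctrl, and overlapped.

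Foxf2 (chr13:31717685-31723272) had the emptiest locus. A promoter peak was called in Tbx1-Cre Ctrl 1 and 3 alone, at 2 different positions of 284 and 328 bp, and in no other library. The region 1497 bp upstream (chr13:31715814-31716562) was more regular, with widths of 749, 506 and 533 bp in Tbx1-Cre Ctrl, 522 and 235 bp in Mesp1-Cre Ctrl 1 and 3, and 285 and 260 bp in cKO 1 and 2. Distal counts of 2, 1 and 1, against 2, 1 and 0 in cKO and 2, 0 and 1 in Mesp1-Cre Ctrl, overlapped.

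Foxd1 and Foxd2, the mesenchymal pair, had a promoter peak in all libraries and fewer distal peaks in cKO. Foxd1 (chr13:99124200-99126660) had 1 promoter peak in each of the 9 libraries. Its distal counts were 5, 4 and 5 in Tbx1-Cre Ctrl, 2, 2 and 3 in cKO and 2, 1 and 2 in Mesp1-Cre Ctrl, so that both other groups lay below Tbx1-Cre Ctrl without overlap (exact permutation p = 0.1 each, adjusted p 0.384 and 0.872). Per 10000 peaks of the list, however, Foxd1 distal peaks stood at 0.999 ± 0.0705 in Tbx1-Cre Ctrl and 1.01 ± 0.445 in cKO. The Mesp1-Cre Ctrl value was 0.505 ± 0.135, and every library of that group was below every Tbx1-Cre Ctrl library. By this measure 8.99% of genes were lower in every Mesp1-Cre library and 8.33% were higher. Of the 10 members, 2 were lower, Foxc1 and Foxd1, and 0 were higher.

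The Foxd1 locus held 4 distal regions called in all 3 controls. The region at 37373 bp downstream of the start (chr13:99160992-99162154) was called in all 9 libraries, at 768, 577 and 690 bp in Mesp1-Cre Ctrl, 1115, 723 and 767 bp in Tbx1-Cre Ctrl and 371, 659 and 518 bp in cKO. The region at 39358 bp (chr13:99163254-99163861), the next region along, was called in the 3 controls alone, at 597, 479 and 528 bp. The third, at 52083 bp (chr13:99175962-99176604), was again called in the 3 controls alone, at 520, 406 and 507 bp. The region at 11950 bp was called in all libraries except Mesp1-Cre Ctrl 2 and measured 507, 579 and 840 bp in Tbx1-Cre Ctrl and 333, 320 and 204 bp in cKO. At Foxd1 an interval called in every library and one called only in the controls therefore lay side by side.

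Foxd2 (chr4:114578885-114581503, minus strand) had distal counts of 7, 5 and 3 in Tbx1-Cre Ctrl, 2, 1 and 2 in cKO and 3, 2 and 2 in Mesp1-Cre Ctrl. The cKO counts lay below the controls without overlap (exact permutation p = 0.1, adjusted p 0.384), and those of Mesp1-Cre Ctrl touched them at 3. The Ctrl-only region, 44563 bp upstream (chr4:114625807-114626325, intergenic), measured 372, 241 and 519 bp. Closer to the gene, a region at the promoter of 9130410C08Rik, 5791 bp downstream of the Foxd2 start (chr4:114575338-114576085), was called in the 3 controls at 639, 617 and 716 bp and in Mesp1-Cre Ctrl 1 and 3 at 344 and 200 bp, but in no cKO library. The Foxd2 promoter was called in all 9 libraries. Its widths of 992, 1062 and 1090 bp in Tbx1-Cre Ctrl overlapped the 702, 790 and 1059 bp of cKO. The values of cKO 2 and 3 are each the sum of 2 peaks, so this overlap is not one of single peaks. The window of Foxd2 also holds Foxe3, whose promoter region (chr4:114597528-114598318) was called in all libraries except cKO 1 and 2.

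**Figure D2:**
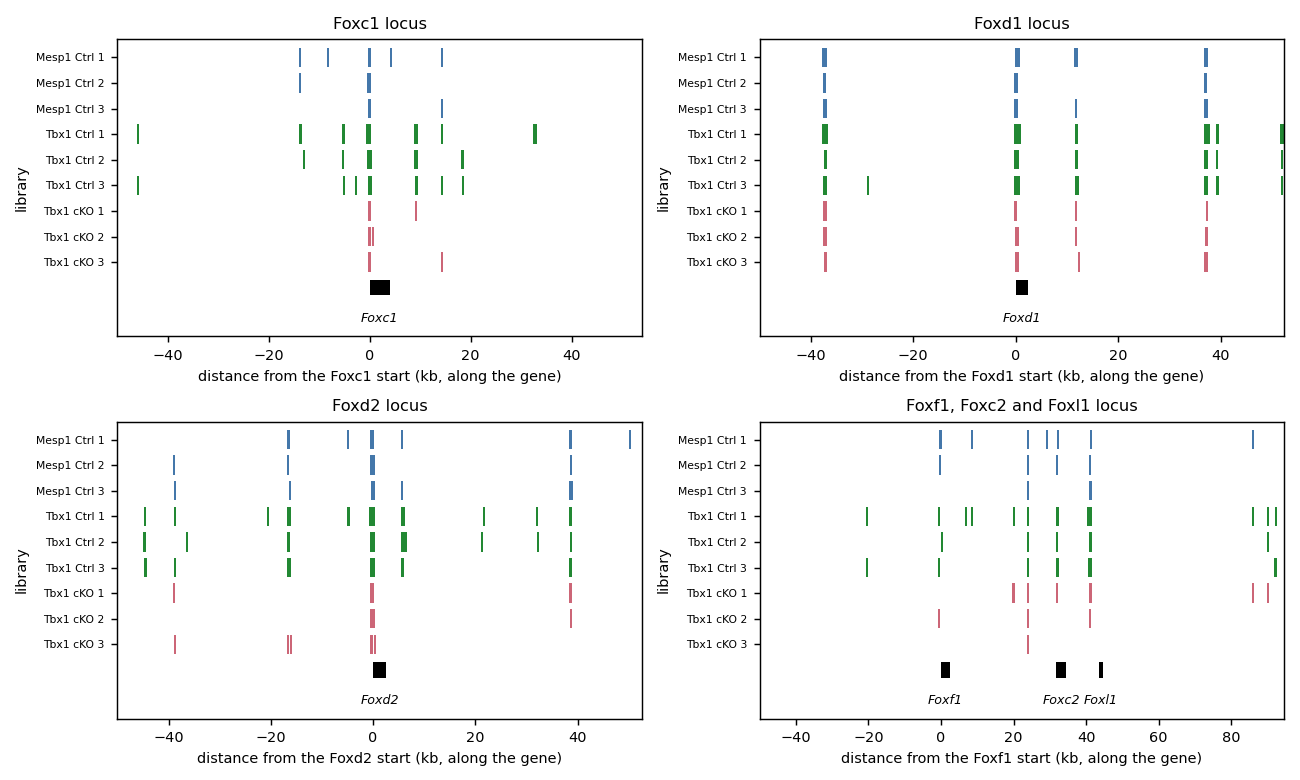
Peaks of the 9 libraries (rows, coloured by group) at the loci of Foxc1, Foxd1, Foxd2 and of Foxf1, Foxc2 and Foxl1, placed by their midpoint as the distance in kb from the start of the named gene, read along that gene. Ticks narrower than a readable width were drawn wider than the peak, black boxes are the genes, and Foxf2 is not drawn; the Foxd1 promoter column is filled in all 9 libraries, whereas the columns at 39 and 52 kb of Foxd1 hold Tbx1-Cre Ctrl peaks alone.

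Foxp1, Foxp2 and Foxp4, the repressor subfamily, have long genes with several starts, so offsets at these loci are given from the nearest annotated start. Foxp1 (chr6:98875332-99216526, minus strand) held the most distal peaks of the 10 members in each Tbx1-Cre Ctrl library. Its window of 441 kb is longer than that of any other member except Foxp2, at 641 kb, and that of Foxc1 is 104 kb. The counts are not scaled to window length. Its counts were 15, 7 and 14 in Tbx1-Cre Ctrl, 5, 2 and 2 in cKO and 9, 4 and 5 in Mesp1-Cre Ctrl. The cKO counts lay below the controls without overlap (exact permutation p = 0.1, adjusted p 0.384), and the Mesp1-Cre counts did not. The 2 promoters called at Foxp1 behaved differently. The internal one (chr6:98977603-98979003) was called in all 9 libraries, at 1401, 990 and 1206 bp in Tbx1-Cre Ctrl, 906, 607 and 891 bp in cKO and 806, 626 and 729 bp in Mesp1-Cre Ctrl. The one at the 5′ end of the gene (chr6:99215610-99216460) was called in Tbx1-Cre Ctrl 1 and 2, in Mesp1-Cre Ctrl 1 and 2 and in no cKO library.

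Within Foxp1 introns, 1 distal region was called in all 9 libraries (chr6:99051365-99052080), with widths of 716, 615 and 568 bp in Tbx1-Cre Ctrl and 434, 457 and 243 bp in cKO. The Ctrl-only region (chr6:98895650-98896147), which holds the forkhead core, measured 426, 266 and 383 bp in Tbx1-Cre Ctrl and was the only 1 of the 7 with Mesp1-Cre peaks, at 470 and 228 bp in libraries 1 and 3. Genome-wide, 51.7% of Ctrl-only distal regions had a Mesp1-Cre peak, against 14.3% here. The reverse pattern also occurred at Foxp1. The region at chr6:99008852-99009154 measured 240, 200 and 302 bp in Mesp1-Cre Ctrl and was absent from all 6 Tbx1-Cre lists. It was 1 of 7 distal regions at the member loci called in all Mesp1-Cre Ctrl libraries, and 6.46% of such regions genome-wide had no Tbx1-Cre Ctrl peak. A neighbour at chr6:99015393-99016275 was opposite, with 862, 794 and 883 bp in Tbx1-Cre Ctrl, 701 and 200 bp in cKO 1 and 3 and no Mesp1-Cre peak.

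Foxp2 (chr6:14851349-15391977) had 4, 4 and 6 distal peaks in Tbx1-Cre Ctrl, 1 in each cKO library and 4, 1 and 2 in Mesp1-Cre Ctrl. The cKO counts lay below the controls (exact permutation p = 0.1, adjusted p 0.384), also per 10000 peaks of the list, at 1.0 ± 0.244 and 0.421 ± 0.0821. The single distal peak of each cKO library was the same region, 2916 bp upstream of the gene (chr6:14848064-14848802), called in all 9 libraries at 618, 624 and 712 bp in Tbx1-Cre Ctrl, 513, 481 and 486 bp in cKO and 517, 307 and 369 bp in Mesp1-Cre Ctrl. Here the controls lay above both other groups. The promoter beside it (chr6:14849971-14851821) was also called in all 9, at 1054, 1446 and 1173 bp in Tbx1-Cre Ctrl and 714, 582 and 777 bp in cKO. The widths of cKO 1 and 3 are each the sum of 2 peaks.

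Further inside Foxp2, cKO lists were empty. The internal promoter (chr6:15133999-15134948) was called in the 3 controls, at 595, 223 and 671 bp, and in Mesp1-Cre Ctrl 1, at 467 bp, and the nearest cKO peak lay 282260 bp away. The Ctrl-only intronic region with the T-box half-site (chr6:15235216-15235717) measured 229, 456 and 487 bp. A region at the start of AC163724.1, an annotation inside Foxp2, (chr6:15354760-15355440) was called in all 3 Mesp1-Cre Ctrl libraries, at 602, 233 and 681 bp, in Tbx1-Cre Ctrl 1 at 279 bp, and in no cKO library.

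Foxp4 (chr17:48004082-48061594, minus strand) had 2 promoters called throughout. The main promoter (chr17:48060913-48062307) and an internal one (chr17:48024154-48025195) had a peak in all 9 libraries. The former was 1125, 1220 and 1085 bp wide in Tbx1-Cre Ctrl, 887, 1066 and 655 bp in cKO and 958, 997 and 995 bp in Mesp1-Cre Ctrl, and both other groups were narrower without overlap. Distal counts were 11, 6 and 5 in Tbx1-Cre Ctrl, 5, 3 and 1 in cKO and 8, 1 and 6 in Mesp1-Cre Ctrl, and touched at 5 for cKO (exact permutation p = 0.2). The intronic region at chr17:48035019-48036526 was called in all 9 libraries, at 1493, 1054 and 727 bp in Tbx1-Cre Ctrl and 832, 869 and 475 bp in cKO, which overlapped. The Ctrl-only region (chr17:47968076-47968792) lies in an intron of the neighbouring gene Mdfi, 1684 bp from an Mdfi start, and measured 715, 251 and 556 bp.

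**Figure D3:**
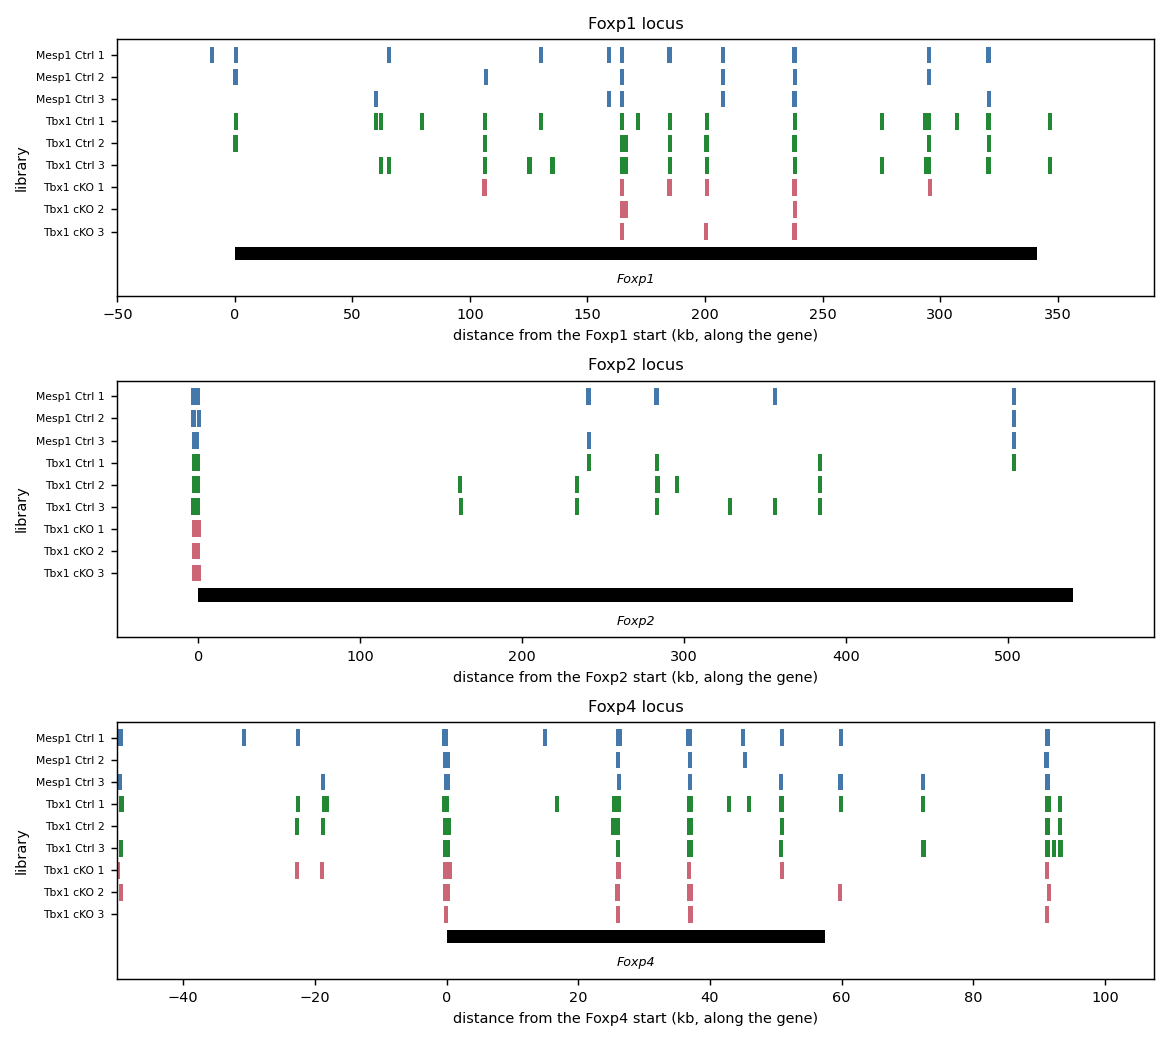
Peaks of the 9 libraries (rows, coloured by group) along Foxp1, Foxp2 and Foxp4, placed by their midpoint as the distance in kb from the first start of each gene, with the gene as a black bar and short peaks drawn wider than they are. Foxp2 carries no Tbx1-Cre cKO tick beyond those next to its start, and Foxp1 carries 15, 7 and 14 distal peaks in Tbx1-Cre Ctrl against 5, 2 and 2 in cKO.

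Promoter counts of the members did not separate cKO from Tbx1-Cre Ctrl at any of the 9 genes with a promoter peak, where the background was 3.63% lower and 0.257% higher. Summed over the 10 genes they were 14, 13 and 12 in Tbx1-Cre Ctrl and 10, 10 and 9 in cKO (13.0 ± 1.0 and 9.67 ± 0.577, n = 3), or 74.4% of the control mean where promoter peaks over whole lists were at 83.2%. Every cKO sum lay below every control sum, also per 10000 promoter peaks of each list (8.09, 8.32 and 7.52 against 6.93, 7.24 and 7.23), but the direction turned per 10000 peaks of any kind, where every cKO library lay above every control (means of 4.04 and 2.79). Peaks at promoters of other genes within the loci numbered 6 in each Tbx1-Cre Ctrl library and 3, 3 and 4 in cKO. Gene by gene, peaks at promoters of any gene but the one counted were lower in every cKO library at 2 of 7 members, Foxd2 and Foxl1. The background was 7.46% of 14308 genes. At Foxl1 this count takes in the promoters of the members Foxc2 and Foxf1, so it is not limited to genes outside the set. Of the 28 promoter regions in the loci, 10 were called in all 9 libraries (35.7%, against 56.8% genome-wide). Of the 15 called in all controls, 2 had no cKO peak (13.3%, against 4.07%), the internal Foxp2 start and the 9130410C08Rik start near Foxd2.

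**Figure D4:**
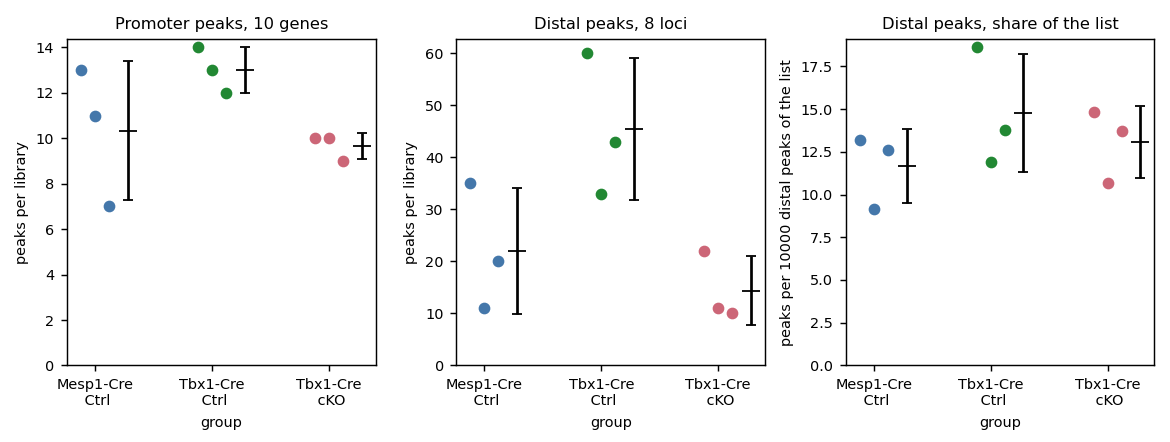
Promoter peaks of the 10 genes (left), distal peaks of the 8 loci (middle) and distal peaks per 10000 distal peaks of the list (right) in each group, with 1 point per library and the mean ± SD beside the points (n = 3). Counts of Tbx1-Cre cKO lie below those of Tbx1-Cre Ctrl in the first pair of panels and overlap them in the last.

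Peak width at shared regions, summed over the peaks of a library in a region, was the remaining measure. Of the 10 promoter regions at the member loci called in all Tbx1-Cre libraries, 7 were narrower in every cKO library than in every control (41.3% of 10605 such regions genome-wide), and of 5 distal regions 4 were (54.1% of 4323). The 7 were the promoters of Foxc1, Foxd1, Foxp2, the internal Foxp1 start and the main Foxp4 start, with those of the neighbours Mdfi and Mthfsd. Those of Foxd2, the internal Foxp4 start and the neighbour Btf3 overlapped. The 4 distal regions were the pair at 11950 and 37373 bp of Foxd1, the region upstream of Foxp2 and the Foxp1 intronic region called in all 9 libraries, and no region was wider in every cKO library (0.104% of promoter and 0.0694% of distal regions genome-wide). Base pairs under peaks were lower in every cKO library at 10 of 10 members, where the background was 68.5% of genes. Foxf1, Foxc2 and Foxl1 share peaks, so these members are not separate, and no background matched for peak number was taken.

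**Figure D5:**
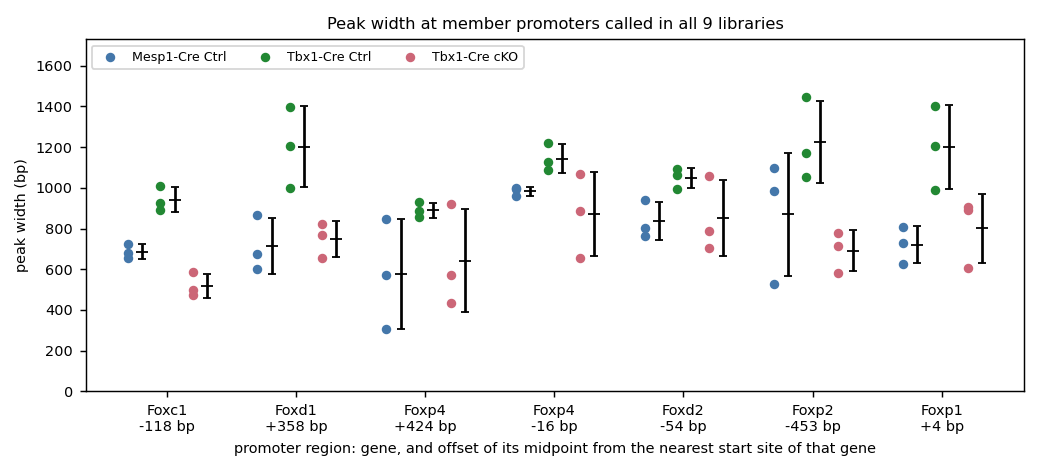
Peak width in bp at the 7 promoter regions of the members called in all 9 libraries, with 1 point per library and the mean ± SD (n = 3) beside each group, labelled by the gene and the offset of the region from the nearest start. Where a library had more than 1 peak in a region, their widths were added. Widths of Tbx1-Cre Ctrl exceed those of every cKO library at 5 regions and overlap cKO at Foxd2 and at the internal Foxp4 region.

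The second comparison asked what was open in the Mesp1 lineage relative to the Tbx1 lineage, and it uses the same Tbx1-Cre Ctrl libraries as the first. Distal peaks at the 8 loci numbered 35, 11 and 20 in Mesp1-Cre Ctrl (22.0 ± 12.1, n = 3), or 48.5% of the Tbx1-Cre Ctrl mean against 59.8% for distal peaks over whole lists. Library 1 of Mesp1-Cre Ctrl, at 35, lay above Tbx1-Cre Ctrl 2, at 33, so the groups overlapped. At single genes, 2 of 10 members lay wholly below Tbx1-Cre Ctrl, Foxc1 and Foxd1, and none above, where the background was 11.1% lower and 0.391% higher, and 13.0% lower among genes with a mean of at least 1 distal peak. Without Mesp1-Cre Ctrl 1 the distal sums no longer overlapped, and 6 members lay below (Foxc1, Foxd1, Foxd2, Foxl1, Foxp1 and Foxp2), where 27.6% of genes did, and 33.7% of those with a mean of at least 1 distal peak.

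Region by region, 8 of the 21 distal regions called in all Tbx1-Cre Ctrl libraries had no Mesp1-Cre peak (38.1%, against 24.3% genome-wide). They were 6 of the 7 Ctrl-only regions, all but the Foxp1 region with the core, plus the downstream Foxc1 region and the Foxp1 region at chr6:99015393-99016275. Without Mesp1-Cre Ctrl 1 there were 9 (39.5% genome-wide), with a further Foxp1 region at chr6:99031187-99031787. Promoter sums of 13, 11 and 7 in Mesp1-Cre Ctrl overlapped the controls, although 11 and 7 alone do not, and no member separated (background 1.57% lower), or Foxp2 alone without library 1 (3.93%). Of 11 promoter regions at the member loci called in all 6 libraries, 7 were narrower in every Mesp1-Cre library (18.4% of 11689 genome-wide), namely those of Foxc1, Foxd1, Foxd2, Foxp1 and both Foxp4 starts, with Foxe3. Among 6 distal regions, 1 was, upstream of Foxp2 (26.5% of 6020). Without Mesp1-Cre Ctrl 1 these counts were 9 of 11 (39.5%) and 4 of 6 (44.9%). Base pairs under peaks were lower in every Mesp1-Cre library at 4 members, Foxc1, Foxd1, Foxd2 and Foxp1, against 25.1% of genes, and at all 10 without library 1, against 58.9%.

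Other forkhead genes were read the same way. Of 34 outside the 10 members, 32 had a distal peak. Of these, 8 lay wholly below Tbx1-Cre Ctrl in cKO and none above, where the background was 26.0% of genes lower and 0.0508% higher. The median difference over all 34, with the genes without a peak included, was -1.0 peaks. Of the 8, the 5 with the greatest differences were Foxk1 (16, 12 and 10 in Tbx1-Cre Ctrl, 5, 4 and 6 in cKO), Foxo3 (11, 6 and 7 against 4, 1 and 1), Foxo1 (5, 3 and 5 against 1, 1 and 0), Foxm1 (4, 3 and 4 against 2, 0 and 1) and Foxn3 (5, 5 and 6 against 2, 4 and 2). Foxk1 acts in metabolism and autophagy, Foxo1 and Foxo3 act downstream of insulin signalling, and Foxm1 drives mitotic genes. A promoter peak in all 9 libraries was called at 12 of the 34 genes and at 6 of the 10 members (Foxc1, Foxd1, Foxd2, Foxp1, Foxp2 and Foxp4), against 48.6% of all 22073 genes.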

How the data were processed

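ATAC-seq peak lists of 9 libraries were used, with 3 in each of the Mesp1-Cre Ctrl, the Tbx1-Cre Ctrl and the cKO group, assigned by the sample titles. The deposited values are interval positions in bp (chromosome, start, end), with no other measure beside them. The authors trimmed reads with cutadapt, aligned them to mm9 with Bowtie2 2.3.4.3, kept unique concordant pairs, removed PCR duplicates and mitochondrial reads, and called peaks with MACS2 in each library without pooling. In the Mesp1-Cre lists the narrowest end minus start was 199 bp against 200 in the others, so their starts were read as 1-based. Replicates are libraries of pooled embryos, and the p-values measure the spread between those pools.

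Genes and TSS came from the GENCODE annotation of NCBIM37 (mm9), which also supplied the sequences. Peaks on chromosomes 1 to 19, X and Y were counted gene by gene over all protein-coding genes plus Foxl1, and groups were compared with an exact two-sided permutation test of the difference in means (20 relabellings, smallest p 0.1) with Benjamini-Hochberg adjustment over all genes. A gene was called where every library of one group lay below or above every library of the other. Regions were peaks of the 9 lists merged where they overlapped by at least 1 bp, 73339 in all. The width of a region in a library was the sum over the peaks of that library in it. Sums over the members have no test. The read-count model of the study could not be fitted to intervals. All 10 members, their promoter regions, distal regions called in 3 libraries of one group and 0 of another or in all 9, and the 5 other forkhead genes with the greatest non-overlapping difference were named. The members and lists were chosen with earlier results of these data known. Alternatives were windows of 10 and 100 kb, promoters within 2.5 kb, assignment by overlap, equal numbers of the widest peaks, counts per 10000 peaks, base pairs covered, a replicate block, and each library left out. Python 3.11.15, numpy 2.4.6, pandas 2.3.3, scipy 1.17.1 and matplotlib 3.10.9 were used, and the procedure was tested on simulated data.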

Additional observations from a re-analysis of the deposited data

How the results depend on the processing

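Differences below are the group minus Tbx1-Cre Ctrl. With the 19772 widest peaks of each list, where the narrowest peak kept was 545 to 579 bp in Tbx1-Cre Ctrl and 200 to 297 bp in cKO, the cKO distal sum moved from -31.0 to -0.333 and the promoter sum from -3.33 to 1.0. The members with lower distal counts in every cKO library fell from 5 to 0, and numbered 3 with 10 kb windows and 2 per 10000 peaks, where the promoter sum was 1.25 and higher in every cKO library. In the same widest peaks 0 of the 7 Ctrl-only distal regions were kept and 1 other region, downstream of Foxc1, counted as such, and the Mesp1-only regions went from 1 to 0. For Mesp1-Cre the promoter sum moved from -2.67 to 0.333 and the members with lower counts from 2 to 1. That count was also 1 with 10 kb windows and 4 in base pairs. Shares over all genes were not computed for 10 kb windows or for distal base pairs. The Mesp1-Cre promoter sum per 10000 peaks was 0.425, and its distal and promoter sums separated the groups in base pairs (-11582.7 and -3306.0).

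Deviations of libraries with the same number correlated weakly over genes (r = 0.157, -0.0169 and 0.104 for cKO, and 0.138, 0.166 and -0.0487 for Mesp1-Cre). The numbers were therefore not used as pairs in the main comparison, but 3 libraries per group cannot settle whether they pair them. The best correlation was with the own number in 2 of 3 cases in each comparison. With a replicate block, Mesp1-Cre distal and promoter sums (-23.3 and -2.67) were lower in every pair, as were distal counts at 5 members, and for cKO at 7. The share of all genes lower in every pair was not computed, so these member counts have no background.

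With each library left out in turn, the cKO distal sum ranged from -37.2 to -23.7, the promoter sum from -3.83 to -2.83 and the members with lower counts from 5 to 7 (27.2% to 41.1% of genes). For Mesp1-Cre the ranges were -29.8 to -16.0, -4.0 to -1.0 and 2 to 6, the last without Mesp1-Cre Ctrl 1 (27.6% of genes). Leaving it out of the region and base-pair results, chosen after seeing the data, gave 9 narrower promoter regions, 4 narrower distal regions, 9 distal regions without a Mesp1-Cre peak and 10 members with fewer base pairs. Without that library or without Tbx1-Cre Ctrl 2 the distal sums no longer overlapped. Ctrl-only regions ranged from 7 to 15, with 15 without Tbx1-Cre Ctrl 2 and 12 without cKO 1, and their genome-wide share was not computed for these settings. Mesp1-only regions ranged from 1 to 2, with 2 without Mesp1-Cre Ctrl 2, and distal regions in all libraries from 4 to 6.

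Single genes changed sign in 11 of 280 repeats, all small. For cKO these were Foxd1 (0.333), Foxd2 (0.667) and Foxp4 (0.667) among the widest peaks, Foxd1 (0.0117) and Foxf2 (0.084) per 10000 peaks, and Foxf2 (0.167) without cKO 3 (range over left-out libraries -0.833 to 0.167). For Mesp1-Cre they were Foxd2 (0.333) and Foxp4 (0.333) among the widest peaks, Foxf2 without Mesp1-Cre Ctrl 2 (range -0.833 to 0.167), and Foxc2 (-1.33 to 0.667) and Foxf1 (-2.33 to 0.167) without Tbx1-Cre Ctrl 1. Why these values moved was not tested beyond what the settings show. Peak lists without heights or read depth limit all of them.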
